A study of Mus musculus with 31 samples.

Results

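Macrophage polarization genes are the 9 genes Arg1, Nos2, Mrc1, Chil3, Retnla, Il10, Il12b, Cd163 and Ido1, chosen by name out of 46072 genes in each deposited table. All 9 were found in every library. They were followed in RM-9 tumors (RM9 in the labels, a mouse prostate cancer line) and MC-38 tumors (MC38, a mouse colon cancer line), grown under the skin of the right hind leg of male C57BL/6 mice (C57BL/6J in the methods of the study) labelled wild type and bought at 6 to 7 weeks of age. Tumors of about 8 mm received no treatment or one local dose of 15 Gy of radiation therapy (RT) and were taken 3 h, 12 h or 24 h later. There were 31 mice, 15 with RM-9 tumors (4 control, 4 RT 3 h, 4 RT 12 h, 3 RT 24 h) and 16 with MC-38 tumors (4 per group). The untreated mice carry the 3 h label, so a change at 12 h or 24 h cannot be told apart from a change with time alone, and the 3 RT groups of a model share its 4 control mice. Each line is a single transplanted cell line grown outside its organ of origin. A difference between the models cannot be told apart from any difference in how their libraries were prepared or sequenced.

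Macrophages change their gene program with the signals around them. Interferon-gamma and Toll-like receptor ligands induce Nos2 and Il12b in mouse macrophages, whereas IL-4 and IL-13 induce Arg1, Mrc1, Chil3 and Retnla through STAT6. Tumor macrophages commonly carry genes of both programs at once, and the ends of this scale are reference states rather than cell types. In whole tumor RNA, fewer cells of a type and less RNA per cell cannot be told apart. The tumor cells, and immune cells other than macrophages, may contribute to any of these transcripts.

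Values are TPM, a share of all transcripts that takes gene length into account and sums to 1e+06 in each library. The sequencing depth, in units of 1e+06 reads, was 21.4 to 29.4 per library. One short mitochondrial gene, mt-Nd4l, took 35.6 to 43.5% of the TPM of RM-9 libraries and 12.9 to 29.6% of the TPM of MC-38 libraries, which lowers the TPM of every other gene to different degrees. Skeletal muscle markers from the leg summed to between 2.75 and 10318 TPM, and the library of MC-38 control mouse 1 had both the highest muscle level (10318 TPM) and the highest mt-Nd4l share of its model. The 12 macrophage markers were present in both models, with Lyz2 at a median of 247 TPM in RM-9 and 239 TPM in MC-38 tumors. All samples are labelled adenocarcinoma, and the median level of the epithelial keratin gene Krt8 in RM-9 tumors was 767 TPM. The MC-38 tumors differed: Krt8, Krt18, Krt19 and Epcam were each below 0.1 TPM at the median, so the epithelial part of that label is not seen in these transcripts.

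The enzymes of arginine and tryptophan use form the first group. Arg1 (chromosome 10, 24915208 to 24927470, minus strand, coordinates of GRCm38 here and below) encodes arginase 1, which turns arginine into ornithine and urea. Nos2 (chromosome 11, 78920787 to 78960254, plus strand) encodes inducible nitric oxide synthase, which takes the same substrate. Ido1 (chromosome 8, 24584136 to 24597009, minus strand) encodes indoleamine 2,3-dioxygenase, which starts tryptophan breakdown and is induced by interferon-gamma. The scavenger receptors are Mrc1 (chromosome 2, 14229392 to 14332057, plus strand), the mannose receptor CD206, and Cd163 (chromosome 6, 124304651 to 124330527, plus strand), which takes up haemoglobin bound to haptoglobin. Secreted products of IL-4-treated macrophages are Chil3 (chromosome 3, 106147554 to 106167564, minus strand), the chitinase-like protein Ym1, and Retnla (chromosome 16, 48842552 to 48844461, plus strand), the resistin-like molecule FIZZ1. The cytokines are Il10 (chromosome 1, 131019845 to 131024974, plus strand), which restrains macrophage activation, and Il12b (chromosome 11, 44400063 to 44414033, plus strand), the subunit shared by IL-12 and IL-23. All are protein-coding genes, and each value covers the whole gene.

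Signal near the lower end rests on few reads. From depth and exon length, 1 RM-9 library held a median of about 6.92 reads of Il12b and 9.92 of Ido1, and 1 MC-38 library held about 3.97 reads of Retnla and 14.8 of Il12b. At the other end, Arg1 had a median of about 5274 reads in RM-9 and Nos2 about 1252 in MC-38 tumors. Of the 1606 distinct 75-base windows in Chil3 transcripts, 208 (12.95%) also occur in Chil4 or Gm6522, so part of its signal could be split with these copies. No such window was shared for the other 8 members. The microRNA gene Mir511 lies inside Mrc1 on the same strand.

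Since STAT6 acts downstream of IL-4, the RefSeq promoters of GRCm38.p6 (250 bases before to 50 after the start) were read on both strands for the STAT6 type motif (TTC and GAA with 4 bases between them), found in 6.95% of all 32851 promoters, and for the NF-kB motif (4.51%). Promoters were given for 5 members (Mrc1, Chil3, Retnla, Il12b, Cd163). Retnla held 1 match to the STAT6 type, and these letters were in none of the other 4 windows. The stretch is shown because Retnla is one of the genes that IL-4 induces, yet it was listed at 0 in some MC-38 tumors and in RM-9 mouse 2 at 12 h. The line gives bases -200 to -101 relative to the start, 5′ to 3′ on the gene's strand, with the match (bases -145 to -136) in capitals, on chr16:48842409-48842508 (plus strand).
Retnla: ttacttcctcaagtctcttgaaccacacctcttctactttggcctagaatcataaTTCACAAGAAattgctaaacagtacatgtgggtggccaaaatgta
A match describes the letters and is not a measured binding site.

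**Figure D1:**
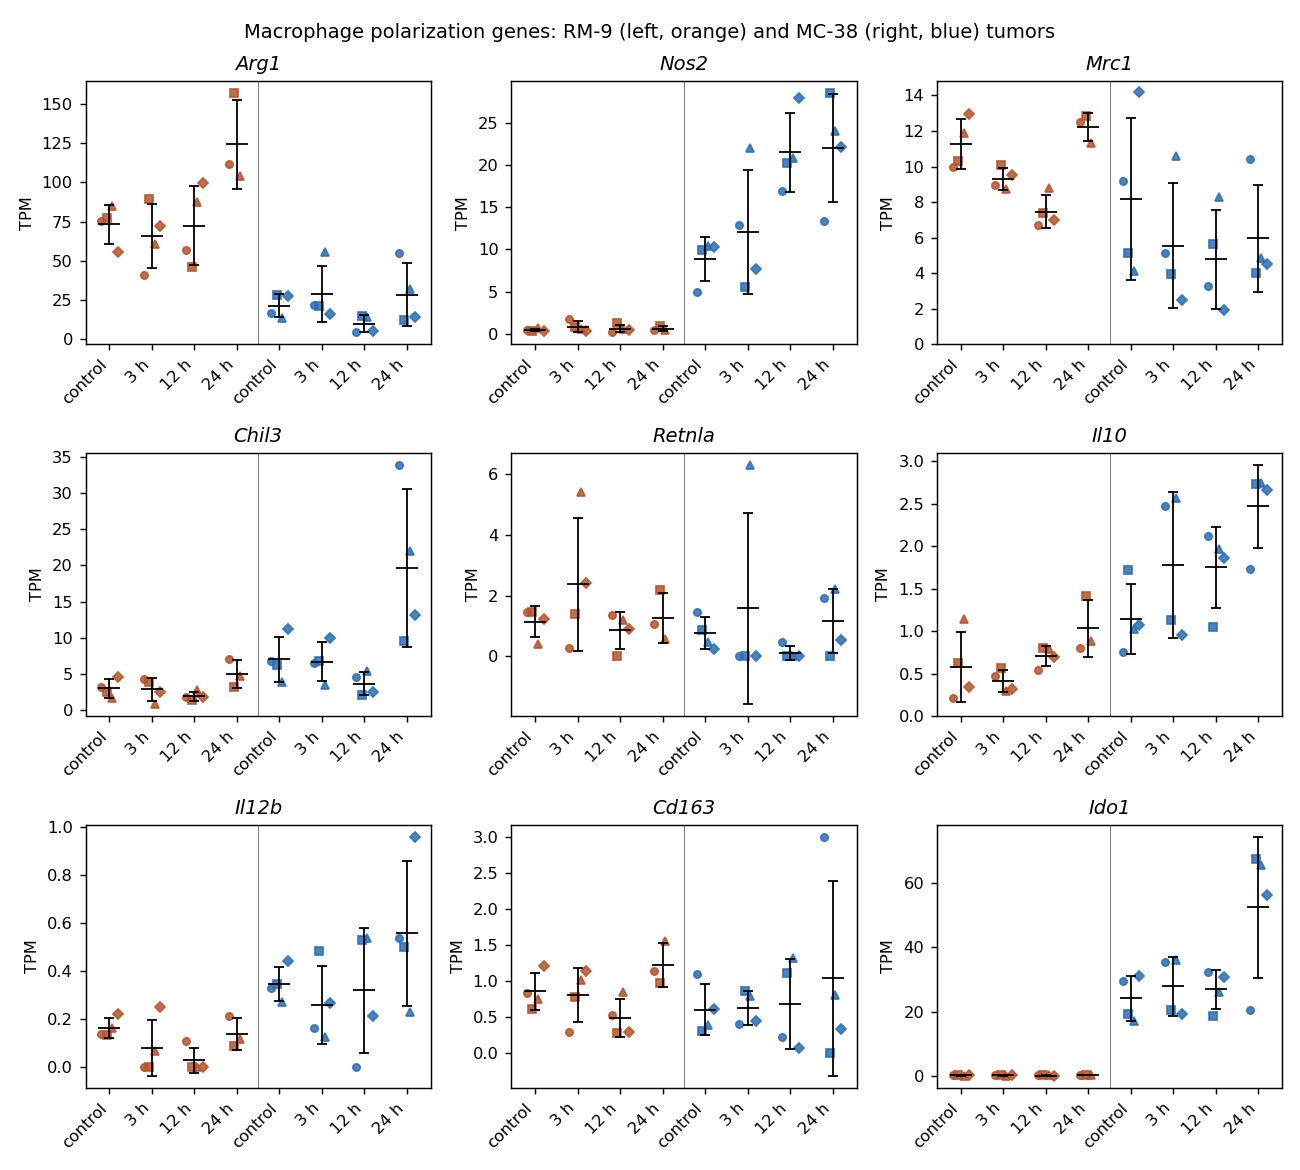
TPM of the 9 members in each mouse (y axis, a scale of its own per panel) for the control, 3 h, 12 h and 24 h groups of RM-9 (orange, left) and MC-38 tumors (blue, right). Marker shape gives the mouse number (circle 1, square 2, triangle 3, diamond 4), the black bar is the group mean and the whiskers are ± 1 SD. Nos2 and Ido1 lie near 0 in all RM-9 groups and well above it in MC-38 tumors, where Nos2 is higher at both later times than in control mice.

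The untreated tumors of the models differed in which arginine and tryptophan enzymes they expressed. RM-9 tumors had a high level of Arg1 and almost no Nos2 or Ido1. MC-38 tumors expressed Ido1, Arg1 and Nos2 together. In control mice 1 to 4, Arg1 was 75.6, 77.2, 85.2 and 55.8 TPM in RM-9 and 16.8, 27.9, 13.5 and 27.7 TPM in MC-38 tumors. Every MC-38 value lay below every RM-9 value, and the log2 difference (MC-38 minus RM-9) was -1.80 ± 0.43 (SE; limma, Benjamini-Hochberg adjusted p = 0.00045). Nos2 ran the other way, at 0.456, 0.348, 0.648 and 0.320 TPM in RM-9 and 4.98, 9.88, 10.4 and 10.3 TPM in MC-38 tumors. The ranges did not overlap, although MC-38 control mouse 1 had less than the other MC-38 mice, and the log2 difference was 3.28 ± 0.34 (limma adjusted p = 2.61e-09). Ido1 was 0.191, 0.193, 0.1301 and 0.214 TPM in RM-9, against 29.5, 19.2, 17.3 and 30.98 TPM in MC-38 tumors. It was the member with the largest difference between the models, at 5.14 ± 0.28 on the log2 scale (limma adjusted p = 7.28e-15), a scale on which the 0.5 TPM pseudocount understates the change of a gene this low in RM-9. For each of these 3 enzymes the exact two-sided permutation p over mice was 0.0286, the smallest that 4 mice against 4 allow.

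The scavenger receptors and secreted products differed less at baseline. Chil3 was 3.30, 2.52, 1.70 and 4.67 TPM in RM-9 and 6.86, 6.22, 3.89 and 11.2 TPM in MC-38 control mice. The ranges overlapped at MC-38 mouse 3, and the log2 difference was 1.07 ± 0.40 (limma adjusted p = 0.0191). Mrc1 was 9.95, 10.3, 11.9 and 12.9 TPM in RM-9 and 9.21, 5.16, 4.14 and 14.2 TPM in MC-38 mice. MC-38 mouse 4 had more Mrc1 than any RM-9 mouse and the other 3 had less, and the log2 difference of -0.58 ± 0.36 did not pass the test (limma adjusted p = 0.145). Retnla (0.412 to 1.47 TPM in RM-9, 0.241 to 1.47 TPM in MC-38) and Cd163 (0.621 to 1.21 and 0.310 to 1.11 TPM) overlapped between the models, with log2 differences of -0.41 ± 0.68 and -0.33 ± 0.41 (limma adjusted p = 0.594 and 0.467).

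Both cytokine genes were low in both models. Il10 was 0.218, 0.622, 1.15 and 0.346 TPM in RM-9 and 0.758, 1.72, 1.03 and 1.08 TPM in MC-38 controls, overlapping at RM-9 mouse 3, with a log2 difference of 0.65 ± 0.25 (limma adjusted p = 0.0219). Il12b was 0.131 to 0.220 TPM in RM-9 and 0.270 to 0.443 TPM in MC-38 mice. The Il12b ranges did not overlap, but the log2 difference of 0.35 ± 0.21 did not pass the test (limma adjusted p = 0.120).

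In all, 5 of the 9 members differed at baseline, 4 higher and 1 lower in MC-38 tumors, where 75.4% of all 15381 genes tested were called (64.7% higher, 10.7% lower). Groups did not overlap for 4 members (3 higher, 1 lower), against 59.9% of all genes (50.8% higher, 9.08% lower). The median log2 difference was 0.35 over the members and 0.63 over all genes, and 85.8% of the called genes were higher. Median-ratio scaling sets the libraries to a common median log ratio. A small median change over all genes therefore follows from the scaling itself, here and below, and the split of calls shifts with it. It moved the median over all genes to 0.02 and the share of called genes that were higher to 50.9%. Of the 12 macrophage markers, 11 were higher in MC-38 tumors, and their summed level in control mice was 600 to 952 TPM in RM-9 and 1177 to 1957 TPM in MC-38. The calls on Chil3 and Il10 depended on scaling and on single mice. With 1 mouse left out, the Chil3 call was lost in 2 of 8 fits and the Il10 call in 3 of 8. Their exact permutation p was 0.0571 and 0.114 in turn. Under median-ratio scaling, Chil3 (log2 difference 0.48) and Il10 (0.25) no longer passed (limma adjusted p = 0.336 and 0.373). Mrc1 was then called lower in MC-38 tumors (-1.21, limma adjusted p = 0.00716). When each library was scaled to its macrophage markers, Chil3 and Il10 turned lower in MC-38 tumors (-0.16 and -0.58, neither past the threshold). Il12b turned lower and passed (-0.88, limma adjusted p = 0.00846), and Mrc1, Retnla and Cd163 also passed as lower (-1.81, -1.64 and -1.56). With macrophage scaling, 7349 of the 15381 genes were called lower and 1154 higher, and the median over all genes was -0.60. The directions of Arg1, Nos2 and Ido1 held in all 10 alternative settings and with any 1 mouse left out, and each stayed past the threshold.

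Ranked by mean TPM, RM-9 control mice had Arg1 first (73.5 ± 12.5 TPM, SD, n = 4), then Mrc1 (11.3 ± 1.39) and Chil3 (3.05 ± 1.26), with no overlap between neighbours. Retnla, Cd163, Il10 and Nos2 followed at 1.15 to 0.443 TPM, each overlapping the next, and Ido1 and Il12b came last and overlapped each other. MC-38 control mice had Ido1 (24.2 ± 6.998 TPM, n = 4) and Arg1 (21.5 ± 7.40) at the top, overlapping. Nos2 (8.89 ± 2.62), Mrc1 (8.18 ± 4.57) and Chil3 (7.05 ± 3.07) had lower means and overlapped. The highest Mrc1 value (14.2 TPM) lay above the lowest Arg1 value (13.5 TPM). Il10, Retnla, Cd163 and Il12b were at 1.15 to 0.347 TPM, each overlapping the next.

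**Figure D2:**
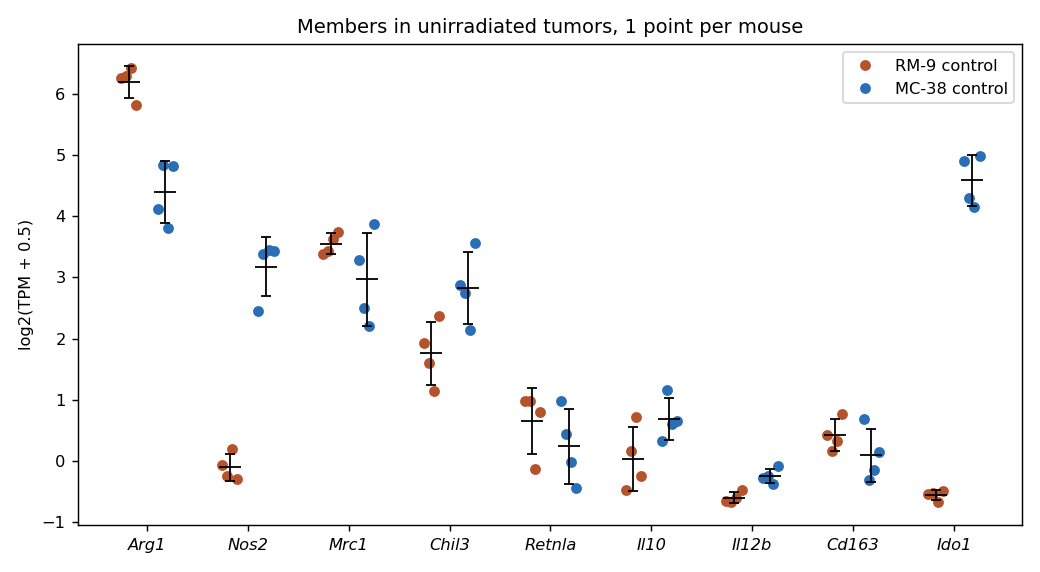
Levels of the members in untreated tumors on the log2(TPM + 0.5) scale (y axis), 1 point per control mouse, RM-9 in orange and MC-38 in blue. Black bars are means with whiskers of ± 1 SD over 4 mice. Arg1 is lower and Nos2 and Ido1 are higher in MC-38 than in RM-9 tumors, with no overlap.

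In RM-9 tumors after RT, the only member that passed the test was Mrc1, which was lower at 12 h. Mrc1 was 9.95, 10.3, 11.9 and 12.9 TPM in control mice 1 to 4 and 8.94, 10.1, 8.73 and 9.50 TPM at 3 h. It was 6.69, 7.41, 8.78 and 6.999 TPM at 12 h and 12.5, 12.8 and 11.3 TPM in the 3 mice at 24 h. All 4 mice at 12 h lay below all control mice, whereas the 3 mice at 24 h lay within the control range. The log2 change was -0.26 ± 0.10 at 3 h (limma adjusted p = 0.180) and -0.56 ± 0.10 at 12 h (limma adjusted p = 0.0237, exact permutation p = 0.0286).

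The Mrc1 call at 12 h was 1 of 9 members, where 8.4% of the 14045 genes tested were called (8.33% lower, 1170 of the 1180 called). The median log2 change was -0.33 over the members and -0.19 over all genes. The macrophage markers moved with it: 4 of 12 fell (Aif1, C1qa, C1qb and C1qc), none rose, and their summed level went from 600 to 952 TPM in control mice to 332 to 644 TPM at 12 h. Scaled to the macrophage markers, the Mrc1 change was -0.02 (limma adjusted p = 0.947). Median-ratio scaling, which moved the median over all genes to 0.01, gave -0.35 for Mrc1 (adjusted p = 0.1004 by limma) and 16 called genes in all, 62.5% of them higher, against 0.847% of the 1180. Leaving mitochondrial genes out of TPM gave -0.43 for Mrc1 (adjusted p = 0.0600 by limma) and 80 called genes, 12.5% of them higher. Leaving out control mouse 1, 2 or 4, or RT 12 h mouse 1 or 4, also moved its adjusted p above 0.05, up to 0.0992.

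Arg1 had its highest RM-9 values at 24 h without passing the test. The 3 mice at 24 h had 112, 157 and 104 TPM, all above the control range of 55.8 to 85.2 TPM, while the mice at 3 h (40.8, 89.6, 60.7 and 72.4 TPM) and 12 h (56.7, 45.9, 87.3 and 99.3 TPM) spread around it. The log2 change at 24 h was 0.75 ± 0.28, with an unadjusted p of 0.0174 and a limma adjusted p of 0.992, and the exact permutation p was 0.0571, the smallest that 3 mice against 4 allow. No gene of 14045 passed at 24 h in RM-9 tumors by limma (0%), with 693 at an unadjusted p under 0.05, and groups did not overlap for 4.26% of genes (2.01% higher) and for 1 member, Arg1. Dunnett comparisons on TPM, which adjust for the 3 times but not over genes, did place Arg1 past the threshold at 24 h and Mrc1 at 3 h. Il10 was 0.798, 1.42 and 0.886 TPM at 24 h, within the upper control range or above it (log2 change 0.55 ± 0.24, unadjusted p = 0.0344, limma adjusted p = 0.992).

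The remaining members of RM-9 tumors gave no call by limma. Il12b was listed at 0 in 3 of 4 mice at 12 h and at 0.105 TPM in the fourth, below all controls (log2 change -0.33 ± 0.15, limma adjusted p = 0.139), a difference of a few reads. With it, groups did not overlap for 2 members at 12 h, both lower, against 19.6% of all genes (19.4% lower). Nos2 ranged from 0.183 to 1.72 TPM over all 15 RM-9 mice, Ido1 from 0 to 0.299 TPM, Cd163 from 0.277 to 1.56 TPM, Chil3 from 0.865 to 7.14 TPM and Retnla from 0 to 5.41 TPM, and RT and control mice overlapped at each time. At 3 h no member was called, where 0.228% of all genes were, and no member's groups were apart (12.7% of all genes). The share of called genes that were higher at 3 h went from 87.5% to 58.3% under median-ratio scaling.

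In MC-38 tumors after RT, Nos2 rose at both later times, and Chil3 and Il10 rose at 24 h. Nos2 was 4.98, 9.88, 10.4 and 10.3 TPM in control mice and 12.9, 5.50, 22.0 and 7.63 TPM at 3 h. It was 17.0, 20.2, 20.8 and 28.0 TPM at 12 h and 13.3, 28.5, 24.0 and 22.1 TPM at 24 h. All 8 mice at the later times lay above all control mice, whereas at 3 h 2 mice lay above the control range and 2 within it. The log2 change was 1.26 ± 0.35 at 12 h (limma adjusted p = 0.0213) and 1.26 ± 0.35 at 24 h (limma adjusted p = 0.0269), fitted folds of 2.39 and 2.40, and the exact permutation p was 0.0286 at both times.

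These calls depended on single mice. Without control mouse 1, the mouse with the lowest Nos2, the highest muscle level and the highest mt-Nd4l share, the log2 change was 1.02 at both times (limma adjusted p = 0.0717 at 12 h and 0.0891 at 24 h). The 12 h call was also lost without RT mouse 2 or 4 (limma adjusted p = 0.0519 and 0.0623), and the 24 h call without RT mouse 2, 3 or 4 (limma adjusted p = 0.0833, 0.0572 and 0.0698). Under median-ratio scaling the 12 h change was 0.92 (limma adjusted p = 0.0564). The 24 h call was also lost with no filter on low values and with only the compared groups. All changes stayed positive.

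The other arginine enzyme had its lowest MC-38 values at 12 h. Arg1 was 16.8, 27.9, 13.5 and 27.7 TPM in controls and 4.72, 14.9, 14.4 and 5.41 TPM at 12 h. RT mice 1 and 4 were below all controls and mice 2 and 3 within their range, and the log2 change of -1.19 ± 0.50 did not pass (limma adjusted p = 0.0747). At 3 h (21.9, 20.9, 55.4 and 16.4 TPM) and 24 h (55.2, 12.0, 32.3 and 14.2 TPM) Arg1 overlapped the controls.

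Arg1 TPM per Nos2 TPM separated the models in every mouse. The ratio had a median of 170 in RM-9 control mice (131 to 222). After RT it was 116 at 3 h (23.7 to 190), 190 at 12 h (36.5 to 311) and 224 at 24 h (175 to 226). These RM-9 ratios rest on low Nos2 values, at most 1.72 TPM. In MC-38 mice it had a median of 2.75 in controls (1.30 to 3.38), 2.33 at 3 h (1.70 to 3.80), 0.484 at 12 h (0.193 to 0.740) and 0.992 at 24 h (0.419 to 4.14). The 12 h mice were the one MC-38 group in which all ratios were below all control ratios.

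**Figure D3:**
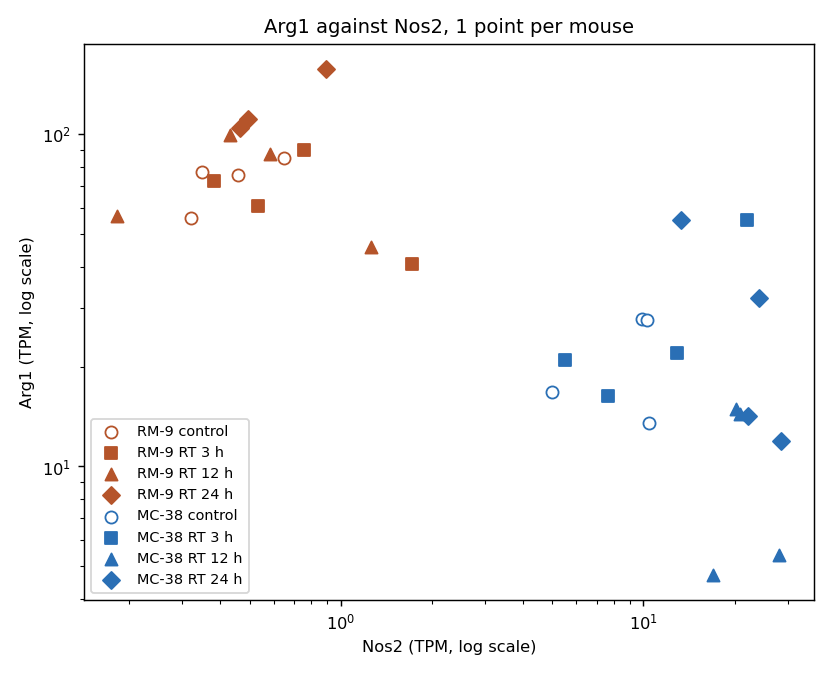
Arg1 against Nos2 in each of the 31 mice, both in TPM on log axes, RM-9 in orange and MC-38 in blue, with open circles for control, squares for 3 h, triangles for 12 h and diamonds for 24 h after RT. RM-9 mice lie at the upper left (Arg1 40.8 to 157 TPM, Nos2 at most 1.72 TPM) and MC-38 mice at the right, with the 12 h mice toward high Nos2 and low Arg1.

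Chil3 rose in MC-38 tumors at 24 h, after lower values at 12 h that did not pass the test. It was 6.86, 6.22, 3.89 and 11.2 TPM in controls and 6.58, 6.86, 3.47 and 9.98 TPM at 3 h. It was 4.60, 2.14, 5.39 and 2.504 TPM at 12 h and 33.9, 9.51, 22.0 and 13.2 TPM at 24 h. At 12 h, 2 mice were below all controls (log2 change -0.85 ± 0.40, limma adjusted p = 0.103). At 24 h, 3 mice were above all controls and mouse 2 within their range, and the fit gave a log2 change of 1.34 ± 0.40 (adjusted p = 0.0369 by limma, with an exact permutation p of 0.0571). Without RT 24 h mouse 1, which had the highest value, the change was 1.03 (limma adjusted p = 0.0819). The call was kept in 2 of the 8 fits that left out 1 mouse and in 6 of 10 alternative settings, and the change was positive in all of them. Chil4, which shares sequence with Chil3, was not called after RT in either model.

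Il10 was 0.758, 1.72, 1.03 and 1.08 TPM in MC-38 controls and 1.73, 2.73, 2.75 and 2.66 TPM at 24 h. The groups did not overlap, though RT mouse 1 lay just above control mouse 2, and the log2 change was 0.87 ± 0.27 (limma adjusted p = 0.0422, exact permutation p = 0.0286). The call was kept in 2 of the 8 fits that left out 1 mouse and in 4 of 10 alternative settings, and the change was positive throughout. At 3 h (2.48, 1.13, 2.57 and 0.957 TPM) and 12 h (2.13, 1.06, 1.97 and 1.86 TPM) Il10 overlapped the controls.

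Ido1 was 29.5, 19.2, 17.3 and 30.98 TPM in MC-38 controls, and it was 35.6, 20.7, 36.1 and 19.4 TPM at 3 h and 32.2, 18.6, 26.2 and 30.9 TPM at 12 h. At 24 h it was 20.5, 67.5, 65.7 and 56.5 TPM. Mouse 1 at 24 h was within the control range and the other 3 mice were above it. The log2 change of 1.01 ± 0.34 at 24 h did not pass the threshold (limma adjusted p = 0.0614), and without RT 24 h mouse 1 it was 1.41 (limma adjusted p = 0.00562).

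The scavenger receptors, Retnla and Il12b gave no call in MC-38 tumors. Mrc1 spread widely within each group, from 4.14 to 14.2 TPM in controls and 2.51 to 10.6, 1.91 to 8.29 and 4.03 to 10.4 TPM at the 3 times after RT in turn. Cd163 ranged from 0 to 3.01 TPM and Il12b from 0 to 0.961 TPM over the 16 mice. Retnla was listed at 0 in 3 of 4 mice at 3 h, 3 of 4 at 12 h and 1 of 4 at 24 h.

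Against the background of all 15726 genes tested in MC-38 tumors, 1 of 9 members was called at 12 h (31% of all genes, 28.4% higher) and 3 of 9 at 24 h (13.8% of all genes, 13.2% higher), all higher. Groups did not overlap for 1 member at 12 h and 2 at 24 h, against 36.4% (34.5% higher) and 15.7% (14.8% higher) of all genes, and no member was called or apart at 3 h (0.0699% and 8.17%). The median log2 change at 12 h was -0.11 over the members and 0.33 over all genes, and at 24 h it was 0.28 and 0.22. Median-ratio scaling moved the median over all genes to 0.00 at 12 h and -0.02 at 24 h. It moved the share of called genes that were higher from 91.7% to 38.4% at 12 h, from 95.9% to 48.6% at 24 h and from 81.8% to 42.9% at 3 h.

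Macrophage markers changed beside the members in MC-38 tumors. At 12 h 9 of 12 fell and none rose, among them C1qb (340 to 120 TPM, log2 change -1.56 ± 0.26, limma adjusted p = 0.00531), Lyz2 (328 to 128 TPM) and Adgre1 (24.6 to 12.3 TPM). Their sum went from 1177 to 1957 TPM in controls to 416 to 1047 TPM at 12 h and 937 to 1288 TPM at 24 h. None of the 12 was called at 24 h, though their median log2 change was -0.38, against 0.22 over all genes. Scaled to these markers, Nos2, Il10, Ido1, Il12b and Cd163 were higher at 12 h, but so were 14391 of the 15726 genes. The Chil3 change at 12 h turned to 0.10 under this scaling (limma adjusted p = 0.794), and the Arg1 change became -0.24. The 10 neutrophil markers gave no call at any time in either model, with summed levels of 12.5 to 27.1 TPM in MC-38 controls and 21.6 to 38.0 TPM at 24 h. Camp, Ltf and Ngp were below 0.1 TPM at the median in both models, and so was Ly6g in MC-38 tumors. Of 7 T cell markers, 4 fell at 12 h in each model and 3 at 24 h in MC-38 tumors. Of 7 dendritic cell markers, Zbtb46 and Fscn1 rose at both later times and Itgax fell at 12 h in MC-38 tumors, and Fscn1 fell at 12 h in RM-9 tumors. Of 5 adipocyte markers Cfd rose at 24 h in MC-38 tumors, of 5 epithelial markers Krt18 fell at 12 h in RM-9 tumors, and none of 6 muscle markers was called. The part of these cell types, of muscle and of the mt-Nd4l share in the members' changes was not tested beyond the scalings given.

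**Figure D4:**
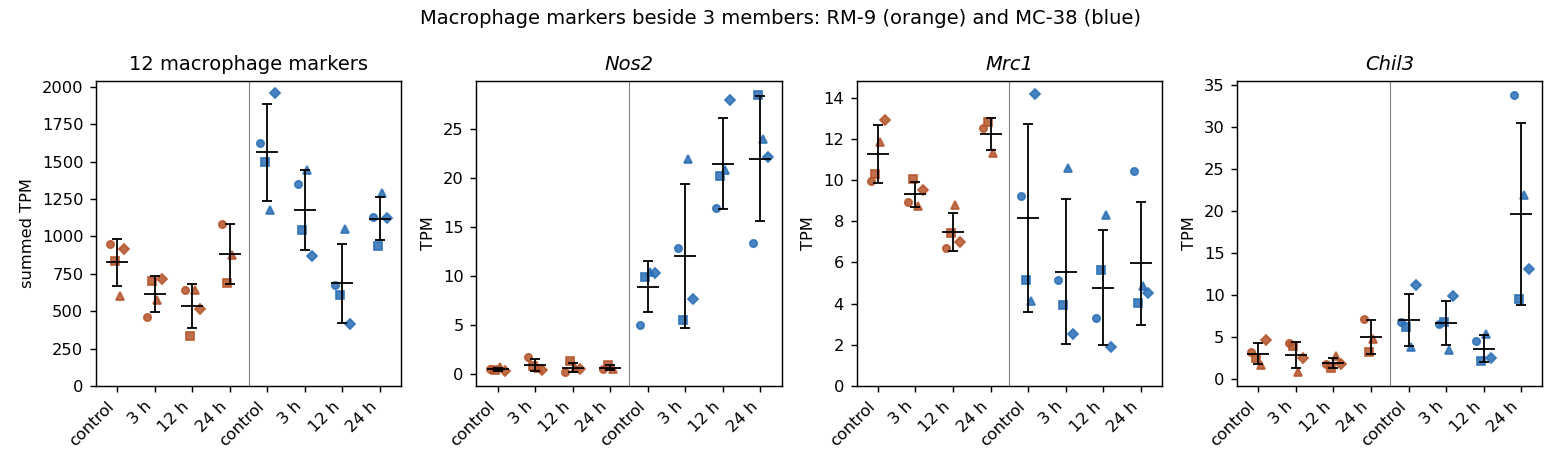
Summed TPM of 12 macrophage markers (left panel) beside the TPM of Nos2, Mrc1 and Chil3 in each mouse, RM-9 in orange and MC-38 in blue, for the control, 3 h, 12 h and 24 h groups. Symbols give the mouse number, bars the mean and whiskers ± 1 SD. In MC-38 tumors the marker sum is lowest at 12 h (416 to 1047 TPM), while Nos2 is above all controls.

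Whether the change after RT differed between the models was tested for each member at each time. None of the 27 differences passed the threshold by limma, where 0% of all genes passed at 3 h, 45.5% at 12 h and 1.82% at 24 h. Median-ratio scaling moved the share of called genes that were higher from 99.0% to 50.7% at 12 h and from 100% to 81.8% at 24 h. The smallest adjusted p was that of Nos2 at 12 h, with a log2 difference (MC-38 change minus RM-9 change) of 1.09 ± 0.48 (limma adjusted p = 0.0635). It passed with a pseudocount of 1 TPM, with only the 4 groups compared or with macrophage scaling (limma adjusted p = 0.0378, 0.0369 and 0.0337). For Ido1 at 24 h the difference was 0.89 ± 0.41 (unadjusted p = 0.0409, limma adjusted p = 0.205). An unadjusted p under 0.05 was reached by these 2 of the 27, so the rise of Nos2, Chil3 and Il10 in MC-38 tumors is not shown to differ from RM-9 tumors.

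Partner genes of the pathways were counted at baseline against a share of 75.4% called over all genes (64.7% higher, 10.7% lower), and median-ratio scaling cut the higher share of all calls from 85.8% to 50.9%. Of 19 genes of the interferon-gamma and TLR axis, 15 were higher and 1 lower in MC-38 than in RM-9 control mice, with a median log2 difference of 1.29 against 0.63 over all genes, among them the interferon-induced chemokines Cxcl10 (30.5 to 841 TPM, log2 difference 4.77 ± 0.36) and Cxcl9 (3.89 to 57.9 TPM) and the transcription factor gene Irf1 (18.2 to 164 TPM). Of 17 genes of the IL-4 and IL-13 axis, 4 were higher and 7 lower (median -0.21), the lower ones including the chemokine gene Ccl24 (6.78 to 0.0811 TPM, -3.56 ± 0.41), the lectin gene Mgl2 (9.97 to 0.709 TPM) and Ccl17 (4.03 to 0.0930 TPM). Of 15 genes of arginine and tryptophan metabolism, 8 were higher, a smaller share than over all genes, and none lower (median 0.37), with Ido2 (0.0688 to 17.6 TPM, 4.97 ± 0.33), the amino acid transporter gene Slc7a5 (44.8 to 195 TPM) and Gch1 (1.61 to 8.58 TPM), which acts in making the cofactor of nitric oxide synthase, differing most. Of 10 partners of IL-10, IL-12 and haemoglobin uptake, 8 were higher and none lower (median 1.12), led by the haem-degrading enzyme gene Hmox1 (16.9 to 177 TPM, 3.23 ± 0.31), the receptor genes Il12rb1 (0.967 to 9.15 TPM) and Il10ra (4.27 to 11.8 TPM). Of 6 paralogs, Chil4 was higher and Mrc2 and Retnlg, which is also a neutrophil marker here, were lower. All of these passed limma's test at an adjusted p of at most 0.0453.

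After RT in MC-38 tumors, 12 of the 19 interferon-gamma and TLR genes were higher at 24 h and none lower, where 13.8% of all genes were called (13.2% higher), and their median log2 change was 0.59 against 0.22 over all genes. The largest changes were in Il6 (1.34 to 6.22 TPM, log2 change 1.82 ± 0.21, limma adjusted p = 0.000305), Il23a (2.64 to 6.34 TPM), whose product pairs with that of Il12b in IL-23, and Cxcl10 (841 to 1702 TPM). At 12 h, where 31% of all genes were called, 1 of the 19 was higher, Il6 (2.63 TPM), and Cd86 (6.78 to 2.83 TPM) and Cxcl9 (57.9 to 36.9 TPM) were lower. Around Nos2, Gch1 (8.58 to 20.6 TPM, 1.20 ± 0.22, limma adjusted p = 0.00304) and the arginine-recycling enzyme gene Ass1 (19.5 to 32.5 TPM) rose at 24 h, and the recycling enzyme gene Asl (29.2 to 41.6 TPM) at 12 h. Downstream of Ido1, the gene of the aryl hydrocarbon receptor, Ahr, rose at both times (3.85 to 7.02 and 7.71 TPM), and Kmo, an enzyme of the kynurenine pathway, fell at 12 h (0.812 to 0.280 TPM). These were all 3 called genes of the 15 in that list at each time, and the list medians (0.15 at 12 h, 0.18 at 24 h) were below those of all genes (0.33 and 0.22).

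Among the IL-4 and IL-13 genes in MC-38 tumors, Cish (1.56 to 2.72 TPM) and Stat6 (40.8 to 53.5 TPM) rose at 12 h, and 4 of 17 rose at 24 h, led by Egr2 (0.916 to 3.03 TPM, log2 change 1.29 ± 0.18, limma adjusted p = 0.000689), Cish and Tgm2 (62.0 to 84.7 TPM). Among the 10 cytokine and haemoglobin partners, Il10ra (11.8 to 7.39 TPM) and Maf (8.77 to 5.48 TPM) fell at 12 h and 2 rose, one of them Il12rb1. At 24 h 4 rose, led by Hp, the haptoglobin gene (9.60 to 29.5 TPM, 1.49 ± 0.42, limma adjusted p = 0.0290), and Stat3 (42.8 to 67.5 TPM). Of the paralogs, Mrc2 rose at both later times (8.23 to 13.2 and 14.6 TPM), while Mrc1 did not pass.

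In RM-9 tumors partner genes were called at 12 h only, and all were lower. They were Mgl2 (9.97 to 4.67 TPM, log2 change -1.04 ± 0.25, limma adjusted p = 0.0307) and Clec10a (4.35 to 1.80 TPM), both lectin genes of IL-4-treated macrophages, Odc1 (122 to 92.8 TPM), which uses the product of arginase, Ifngr1 (19.6 to 15.0 TPM) and Maf (5.51 to 3.79 TPM). That made 2 of 17, 1 of 15, 1 of 19 and 1 of 10 genes of their lists, where 8.4% of all genes were called (8.33% lower), so these shares were near that of all genes. Under median-ratio scaling 16 genes in all were called at 12 h in RM-9 tumors, 6 of them lower.

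The genes whose levels across a model's libraries were most like a member's were listed as a description, since the points share library, depth and treatment. Arg1 was most like Ccl6 in both models (Pearson r = 0.88 over 15 RM-9 and 0.90 over 16 MC-38 libraries), a chemokine gene of myeloid cells. In MC-38 libraries Nos2 was most like Myl7 (r = 0.95), Bmp1 and Trpv4, and Ido1 most like Wfdc6a (r = 0.90), Adgrg7 and Ecscr. Mrc1 was most like Nxpe5 (r = 0.97), Clec10a and Sepp1 in MC-38 libraries and like Trit1 (r = 0.89), Trim30d and Taf15 in RM-9 libraries. Chil3 was most like Plac8 (r = 0.96), Ly6c2, a monocyte surface gene, and Ifitm6 in MC-38 libraries and like Abcc3 (r = 0.92), Gm4955 and Slfn8 in RM-9 libraries. Il10 in MC-38 libraries was most like Spink2 (r = 0.94), Cd274, which encodes the checkpoint ligand PD-L1, and Dapp1. Retnla in RM-9 libraries was most like Ms4a4d (r = 0.83), Igfbp7 and Mcam.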

How the data were processed

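Polyadenylated RNA from 31 tumors was sequenced by the authors (stranded mRNA libraries, 75-base single reads). Per gene and library, the authors deposited coverage (the mean read depth per base), FPKM and TPM, and sequencing depth was computed here as the most frequent ratio of deposited coverage to deposited FPKM, scaled for read length. The aligner and quantification program are not given in the sources used here. The labels name bcl2fastq 2.17 and GRCm39, yet 91.1% of the 45223 genes shared with GENCODE M21 (GRCm38) had the same start or end in both, so coordinates are those of GRCm38. No read counts were used, so no counting error is given, and p-values measure only the spread between mice.

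Rows of one gene were summed, a pseudocount of 0.5 TPM was added, and limma 3.58.1 (eBayes with trend, R 4.3.3) was run on the log2 scale. Genes entered when their mean was 0.5 TPM or more, and the 127 member and list genes always entered. This filter was passed by 7 members in RM-9 libraries and by 8 in MC-38 libraries. Each model's 4 groups were fitted together, and the baseline and between-model contrasts used all 31 libraries. Benjamini-Hochberg adjustment ran over all genes tested, with a threshold of 0.05. Permutation tests were exact and two-sided, on mean TPM over 70 assignments of 4 mice against 4 or 35 of 3 against 4. The steps were tested on simulated data. Python 3.11.15, scipy 1.17.1 and matplotlib 3.10.9 were used.

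The members and the 12 gene lists were chosen with earlier results of these data known. Named genes were every member, up to 3 called genes per partner list and comparison with the largest change, single markers at the extremes, and the 3 most like genes for each member averaging 1 TPM or more; other called partners and markers were named to complete a count. After RT, log2 changes are given for members with an unadjusted p under 0.05 or groups that did not overlap, a choice made after the values were seen. Alternatives were other pseudocounts, scalings (median-ratio, without mitochondrial genes, to macrophage markers), filters and fits, a replicate block, Dunnett comparisons and each mouse left out. Mouse numbers were not treated as pairing the samples. Some promoter motif results are not reported here.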

Additional observations from a re-analysis of the deposited data

Results flagged for a closer look

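In 7 of 63 sets of values (each member in each group of 4 mice), 1 mouse lay far from the other 3. The cutoff is one that chance alone passes in about 1 in 20 sets. That rate does not hold where the other 3 mice are listed at 0, since any value is then flagged, and the sets share mice. An excess over chance is therefore not shown. Retnla in MC-38 tumors was 6.31 TPM in mouse 3 at 3 h and 0.468 TPM in mouse 1 at 12 h, with the other mice of each group listed at 0. The same mouse 3 at 3 h also had the highest Arg1 of its group, 55.4 TPM against 16.4 to 21.9 TPM in the others. MC-38 control mouse 1 had 4.98 TPM of Nos2, against 9.88 to 10.4 TPM in the other controls. MC-38 mouse 1 at 24 h had the highest Mrc1 of its group (10.4 TPM, others 4.03 to 4.87 TPM) and the lowest Il10 (1.73 TPM, others 2.66 to 2.75 TPM). Il12b was 0.105 TPM in RM-9 mouse 1 at 12 h and 0 in the other 3. The causes of these values were not tested.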

How the results depend on the processing

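Of the 23 log2 changes given for members, 6 turned direction, all when libraries were scaled to their macrophage markers: Mrc1 in RM-9 tumors at 3 h (0.085), Il12b in RM-9 at 12 h (0.21), Chil3 in MC-38 at 12 h (0.10), and Chil3 (-0.16), Il10 (-0.58) and Il12b (-0.88) between the control groups. For the other 67 member results, given as TPM only, 94 of 1433 alternative fits had the other direction, and 4 passed the threshold: Il10, Il12b, Cd163 and Ido1 in MC-38 tumors at 12 h with macrophage scaling.

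Counts of members past the threshold in MC-38 tumors at 24 h (3) fell to 1 with median-ratio scaling or without mitochondrial genes and to 0 with no filter or only the compared groups. At 12 h (1) the count was 0 with median-ratio and 5 with macrophage scaling. In RM-9 tumors at 12 h (1) it was 0 with median-ratio or macrophage scaling, without mitochondrial genes and with only the compared groups. At 3 h and 24 h in RM-9 tumors Dunnett comparisons on TPM gave 1 each (0 in limma). In MC-38 tumors at 24 h the Dunnett comparisons added Ido1 to the members past the threshold. The between-model test at 12 h gave 1 with a pseudocount of 1 TPM, macrophage scaling or only the compared groups. With 1 mouse left out, these counts ran from 0 to 3 (MC-38 at 24 h), 0 to 3 (MC-38 at 12 h), 0 to 1 (RM-9 at 12 h) and 0 to 1 (between models at 12 h and at 24 h).

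Counts over all genes moved further. For RM-9 at 3 h (32) they were 403 with median-ratio scaling, 172 without mitochondrial genes, 8 with no filter, 0 with only the compared groups and 13 with the replicate block. For RM-9 at 12 h (1180) they were 16, 80, 580 and 1 in the first 4 of these settings and 2 with macrophage scaling; for RM-9 at 24 h (0), 2 with no filter. For MC-38 at 3 h (11) they were 98 with median-ratio scaling, 145 without mitochondrial genes, 2 with macrophage scaling, 6 at a mean TPM of at least 5, 2 with only the compared groups and 5 with the replicate block. For MC-38 at 12 h (4880) they were 2573 with median-ratio scaling, 14405 with macrophage scaling, 2962 with no filter and 787 with only the compared groups; for MC-38 at 24 h (2167), 499 with macrophage scaling and 313 with only the compared groups. Between models they were 6, 1, 4, 1 and 1 at 3 h (0) with median-ratio scaling, without mitochondrial genes, with no filter, at a mean TPM of at least 5 and with only the compared groups. At 12 h (6995) they were 458 with median-ratio scaling and 2221 without mitochondrial genes. At 24 h (280) they were 448 with a pseudocount of 1 TPM, 26 with macrophage scaling, 35 with only the compared groups and 172 with the replicate block. With 1 mouse left out they ran from 1 to 171 (RM-9 3 h), 0 to 1578 (RM-9 12 h), 1 to 405 (MC-38 3 h), 1435 to 7289 (MC-38 12 h), 1063 to 3525 (MC-38 24 h), and 0 to 2, 4255 to 8585 and 60 to 1450 between models at the 3 times in turn. The causes were not tested, beyond fewer samples or another set of genes where a setting makes that change.

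Deviations of same-numbered mice correlated above 0.1 in 5 of 21 RM-9 pairs and 7 of 24 MC-38 pairs. The median r was -0.08 in RM-9 and -0.07 in MC-38 pairs, and the highest 0.31 and 0.55. The replicate numbers were therefore not treated as pairs. Differently numbered mice were not summarised beside them, so shared handling by number is not excluded. With the number as a replicate block, Il10 in MC-38 tumors at 24 h had a limma adjusted p of 0.0561, and no other call on a member changed. With 3 or 4 mice per group and few reads for Il12b, Retnla and, in RM-9 tumors, Ido1, small changes in these genes may be missed at this depth and are not shown to be absent.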
